A study of Homo sapiens with 9 samples.

Results

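The genes of the ERBB growth factor receptors, of ligands that activate them and of the clathrin adaptors that carry the receptors into the cell were examined in LNCaP cells. The set held 10 genes, found by symbol among 60880 gene rows: the receptors EGFR, ERBB2 and ERBB3, the ligands TGFA and HBEGF, and the endocytic genes HIP1, HIP1R, CLTC, AP2M1 and CBL. All 10 passed the filter on low counts, which left 18389 genes to test. LNCaP cells are a long-used human line of prostate cancer that responds to androgen. RNA was sequenced from 3 groups of 3 libraries, all of LNCaP cells grown in RPMI medium with fetal bovine serum and labelled 24 h: a control, named NT in the labels; a UGT2B28 knockdown, from 1 line (KD4) selected with puromycin at 3 µg/mL; and a rescue, named KD4OE, that carries a UGT2B28 overexpression construct on top of the KD4 knockdown and was selected with G418 at 1 mg/mL. UGT2B28 is an enzyme that conjugates steroids to glucuronic acid. The antibiotic therefore differed along with the construct, and the contributions of the antibiotic and the construct cannot be told apart. Whether the replicates came from separate cultures is not in the labels. The p-values reflect the spread of the deposited libraries alone, and that spread may be technical.

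ERBB receptors are tyrosine kinases of the cell surface that pair with one another when a ligand binds. EGFR binds TGFA and HBEGF, ERBB3 binds neuregulins and has little kinase activity of its own, and ERBB2 has no known ligand and serves as partner. Activated EGFR is tagged with ubiquitin by CBL and enters the cell in clathrin-coated pits, where the AP2 complex, clathrin and adaptors of the HIP1 family assemble.

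Gene counts summed to 20300744 to 26459528 per library. UGT2B28 counts were 25, 4 and 10 for control, 17, 8 and 1 for knockdown, and 1124, 1554 and 1857 for rescue, so the counts do not separate control from knockdown, and the word knockdown follows the label. All 11 luminal prostate markers examined were detected in every group, with a summed level of 4180 to 4420 CPM (gene counts scaled to a common library size) for control, 9020 to 9460 for knockdown and 9170 to 10100 for rescue. Of 13 markers of basal, neuroendocrine, stromal, endothelial and immune cells, 6 had no counts in control, 5 in knockdown and 5 in rescue, among them PTPRC and CD3E in all 3 groups. The summed level of the 13 was 67.8 to 77 CPM for control, 51.3 to 62.8 for knockdown and 64.7 to 77.8 for rescue, most of it from COL1A1 (48.4 to 68.2 CPM as group means). Of the 11 luminal markers, 8 were called higher and 0 lower in knockdown against control, and 4 higher and 2 lower in rescue against knockdown. In rescue against control, 9 were higher and 1 lower. These were 72.7%, 54.5% and 90.9% of the 11, where 32.1%, 10.1% and 37.8% of all tested genes were called. KLK3, KLK2 and TMPRSS2 carried most of the rise in the summed luminal level, while KRT8, KRT19 and STEAP2 were not called in knockdown. In rescue, KRT8 was called lower than in control (log2 fold change −0.21) and KRT18 was not called. Of the 4 other markers that could be tested, the basal keratin KRT14 was called higher than control in both derived lines (1.22 and 0.96, adjusted p = 0.0017 and 0.01). COL1A1, a stromal collagen, was called lower in knockdown than in control (−0.50, adjusted p = 0.00018) and higher in rescue than in knockdown (0.39, adjusted p = 0.0081). The other stromal markers, COL1A2 and DCN, had at most 1 count in any library. The other basal markers, KRT5 and TP63, had at most 12 and 4 counts, and all of these were too low to test. The part of these markers in the differences below was not tested. In RNA from whole cultures, fewer cells of a type and less RNA per cell cannot be told apart.

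ERBB3 (ENSG00000065361.15_4 in the tables) had the largest fold change of the 3 receptors in the comparisons with control. It had 423, 368 and 381 CPM in the control libraries, 279, 256 and 243 in knockdown and 309, 298 and 318 in rescue. The 3 groups did not overlap: every control library lay above every rescue library, and every rescue library above every knockdown library. ERBB3 fell in knockdown against control by 0.59 on the log2 scale (SE 0.074, 95% interval −0.74 to −0.44, edgeR adjusted p = 3.4e-07), a level 0.664 times that of control. In rescue it rose against knockdown by 0.25 (interval 0.10 to 0.40, adjusted p = 0.029) and still lay below control, at −0.34 (interval −0.49 to −0.19, adjusted p = 0.00054). The call against control held without any 1 library in both derived lines. The call of rescue against knockdown was lost without knockdown replicate 2 (adjusted p = 0.0776) or 3 (0.137) and without rescue replicate 1 (0.0936), 2 (0.0545) or 3 (0.103), at log2 fold changes of 0.20 to 0.30 over all such fits.

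EGFR (ENSG00000146648.17_3) had 393, 322 and 306 CPM in control, 427, 348 and 364 in knockdown and 456, 378 and 393 in rescue. The groups overlapped in all 3 comparisons, and replicate 1 was the highest library in each group. EGFR was called higher only in rescue against control (log2 fold change 0.26, interval 0.07 to 0.46, adjusted p = 0.032). That call was lost without control replicate 2 (adjusted p = 0.108), control replicate 3 (0.164) or rescue replicate 1 (0.188). Knockdown against control gave 0.16 (interval −0.04 to 0.35), and rescue against knockdown 0.11 (interval −0.09 to 0.30), neither called (adjusted p = 0.23 and 0.57). Without control replicate 1 the first of these was 0.27 and called (adjusted p = 0.0132).

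ERBB2 passed no test. It had 262, 254 and 223 CPM in control, 249, 246 and 248 in knockdown and 260, 238 and 262 in rescue. Its log2 fold changes were 0.01 (interval −0.14 to 0.16) in knockdown against control, 0.03 (−0.12 to 0.18) in rescue against knockdown and 0.04 (−0.11 to 0.19) in rescue against control, with no call. The interval of each comparison thus reached no further than 0.19 in either direction.

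**Figure D1:**
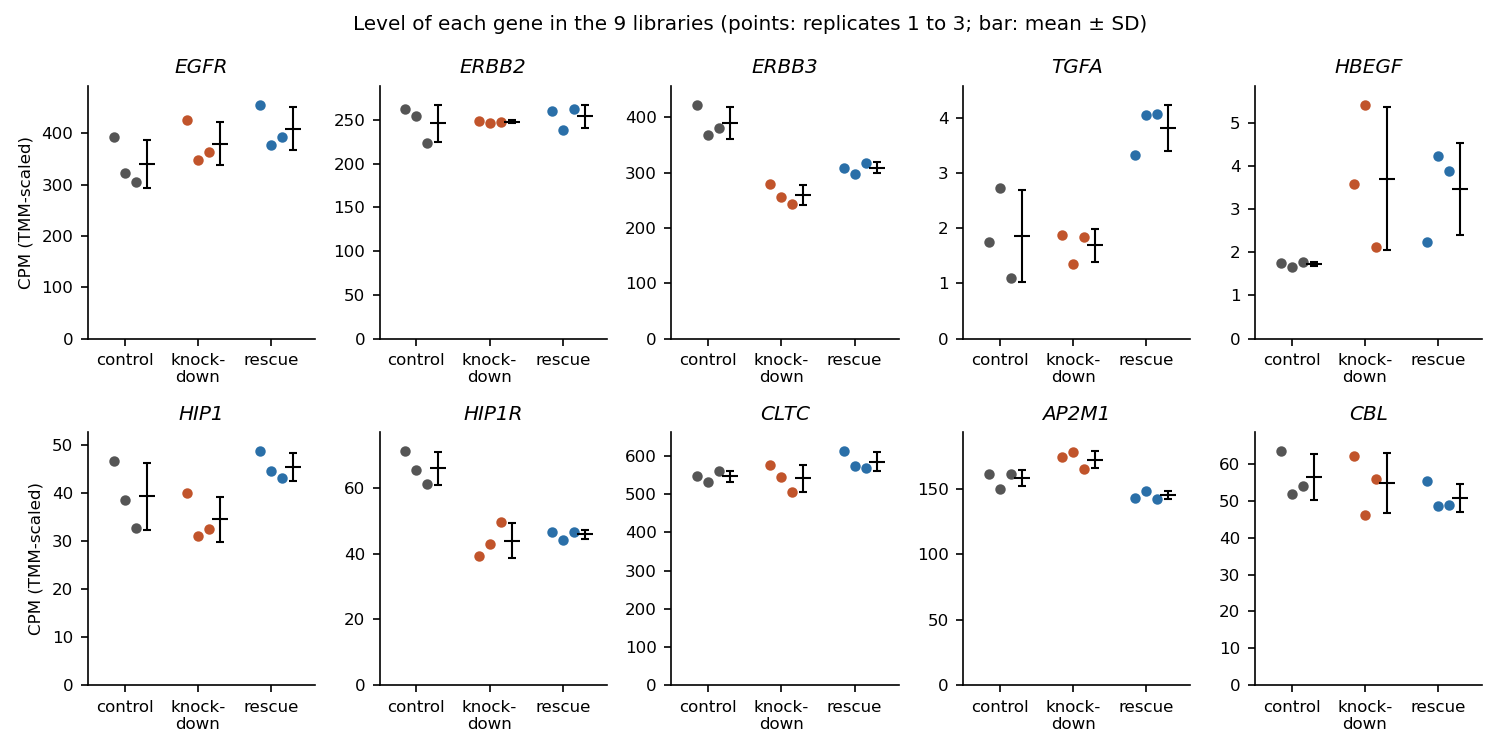
Level of each of the 10 genes in the 9 libraries, in CPM after TMM scaling (vertical axis, from 0), for control (grey), knockdown (orange) and rescue (blue); points are libraries and bars the mean ± SD (n = 3). ERBB3 lies at 368 to 423 CPM for control, 243 to 279 for knockdown and 298 to 318 for rescue, and TGFA is at 3.33 CPM or above only in rescue.

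Within each library, the levels of the 3 receptors were also set against one another per kilobase of exon, a ratio that does not depend on the scaling of libraries. ERBB3 made up 45.9 ± 1.69% (SD, n = 3) of the summed receptor level in control, 34.6 ± 0.933% in knockdown and 37.4 ± 1.47% in rescue. EGFR made up 28.8 ± 1.37%, 36.5 ± 1.77% and 35.7 ± 2.05%, and ERBB2 25.3 ± 1.45%, 29 ± 1.65% and 26.9 ± 0.686%. The 3 shares add up to the whole, so a lower ERBB3 level raises the shares of EGFR and ERBB2 even at unchanged levels. The summed level was 94.2 ± 8.22 CPM per kilobase in control, 83 ± 5.25 in knockdown and 91.4 ± 4.83 in rescue. In knockdown against control neither EGFR nor ERBB2 was called (log2 fold changes 0.16 and 0.01). The share of ERBB3 was lower in each of the 6 knockdown and rescue libraries (33.6% to 38.3%) than in the 3 control libraries (44.7% to 47.8%). ERBB3 was ahead of EGFR in every control library. In knockdown, EGFR had the higher share in replicates 1 and 3, and ERBB3 in replicate 2.

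Both EGFR ligands of the set were low in all groups, below EGF, which is outside the set and lay at 14 to 19.1 CPM. TGFA (ENSG00000163235.15_3), a membrane-anchored growth factor released by proteases, had 47, 59 and 24 counts in control, 49, 32 and 40 in knockdown and 68, 101 and 109 in rescue. These were 1.76, 2.74 and 1.09 CPM, then 1.87, 1.35 and 1.84 CPM, then 3.33, 4.05 and 4.08 CPM. Every rescue library lay above every library of the other groups, which overlapped. TGFA rose in rescue against knockdown by 1.18 on the log2 scale (SE 0.311, interval 0.54 to 1.82, adjusted p = 0.013) and against control by 1.04 (interval 0.41 to 1.67, adjusted p = 0.0085). In knockdown against control the value was −0.14 (interval −0.80 to 0.52, adjusted p = 0.79), and it turned to 0.23 without control replicate 2. The call against knockdown was lost without knockdown replicate 2 (adjusted p = 0.0671), rescue replicate 2 (0.0505) or rescue replicate 3 (0.0553), and the call against control without control replicate 3 (0.0625).

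HBEGF (ENSG00000113070.7_2), a heparin-binding ligand of EGFR, had a different pattern. Its counts were 47, 36 and 39 in control, 94, 129 and 46 in knockdown and 46, 106 and 104 in rescue. The control libraries were close together at 1.76, 1.67 and 1.77 CPM, while knockdown had 3.58, 5.43 and 2.12 and rescue 2.25, 4.25 and 3.90 CPM. The lowest knockdown and rescue libraries lay just above the highest control library, and the derived lines overlapped. HBEGF rose against control in knockdown (log2 fold change 1.1, interval 0.45 to 1.74, adjusted p = 0.008) and in rescue (1.01, interval 0.36 to 1.65, adjusted p = 0.013). Rescue against knockdown gave −0.09 (interval −0.70 to 0.52, adjusted p = 0.90). The knockdown call was lost without knockdown replicate 2 (0.72, adjusted p = 0.118), and the rescue call without rescue replicate 2 (0.84, adjusted p = 0.0724) or 3 (0.92, adjusted p = 0.0504). Since these comparisons share the control libraries, and the others share knockdown or rescue libraries, they are not independent of each other.

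The promoters of the ligands are shown because both were higher in rescue than in control. They are the 250 bases before the RefSeq start nearest the principal transcript (GRCh38.p14), 5′ to 3′ on the gene's strand, with matches to the GC box GGGCGG, on either strand and overlaps included, in capitals. TGFA lies at chr2:70553827-70554076 on the minus strand and HBEGF at chr5:140346604-140346853 on the minus strand.
TGFA: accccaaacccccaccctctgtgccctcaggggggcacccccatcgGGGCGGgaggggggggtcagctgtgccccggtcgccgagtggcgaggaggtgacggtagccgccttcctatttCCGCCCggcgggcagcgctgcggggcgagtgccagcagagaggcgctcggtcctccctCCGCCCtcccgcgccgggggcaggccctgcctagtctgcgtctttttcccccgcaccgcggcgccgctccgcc
HBEGF: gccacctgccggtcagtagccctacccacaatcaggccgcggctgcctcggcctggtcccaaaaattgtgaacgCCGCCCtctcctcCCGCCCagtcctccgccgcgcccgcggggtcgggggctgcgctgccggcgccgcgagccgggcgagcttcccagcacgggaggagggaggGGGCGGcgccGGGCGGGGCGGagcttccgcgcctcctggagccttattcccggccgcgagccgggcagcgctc
The TGFA window held 3 GC boxes and the HBEGF window 5, with a GC content of 75.6% and 76.4% against a median of 58.0% over 35116 promoters. A GC box was present in 42.6% of all promoters, at least 3 in 13.88% and at least 5 in 4.15%. Neither window held the AP-1 letters TGANTCA (6.6% of all promoters), the androgen receptor half-site AGAACA (12.4%) or TATAAA (10.7%). Which start LNCaP cells used is not shown by counts per gene.

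Among other receptors and ligands of the family, 2 of 10 passed the filter and 0 of those were called in any comparison by edgeR, DESeq2 or limma voom. At an unadjusted p under 0.05 there were 0, 0 and 1 genes in knockdown against control, rescue against knockdown and rescue against control. EGF, the founding ligand, lay at 14 to 19.1 CPM over the 9 libraries. The neuregulin NRG4 lay at 1.06 to 3.00 CPM. ERBB4, EREG, BTC, EPGN, NRG1, NRG2 and NRG3 had at most 4 counts in any library, around the 0.112 to 0.147 CPM that 3 counts amount to. AREG reached 16 counts (0.642 CPM) in rescue replicate 2 and had 0 counts in all 3 knockdown libraries.

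HIP1 (ENSG00000127946.16_3), an adaptor that binds clathrin, AP2 and membrane lipids, had 46.6, 38.5 and 32.7 CPM in control, 39.9, 31.0 and 32.6 in knockdown and 48.7, 44.6 and 43.1 in rescue. Rescue lay above knockdown in every library, while control overlapped both. HIP1 rose in rescue against knockdown by 0.40 (SE 0.115, interval 0.16 to 0.63, adjusted p = 0.027), a level 1.32 times as high. The call was lost without knockdown replicate 2 or 3 or rescue replicate 1 or 2 (adjusted p = 0.133, 0.116, 0.124 and 0.062). Against control, HIP1 was at −0.19 in knockdown (interval −0.43 to 0.05) and 0.21 in rescue (interval −0.03 to 0.44), neither called (adjusted p = 0.23 and 0.16). Without control replicate 1 the second became 0.35 (adjusted p = 0.0125).

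HIP1R (ENSG00000130787.13_2), the paralogue of HIP1 that links clathrin coats to actin, was lower in both derived lines. It had 71.3, 65.5 and 61.4 CPM in control, 39.2, 42.9 and 49.8 in knockdown and 46.7, 44.3 and 46.6 in rescue. All control libraries lay above all others, and knockdown and rescue overlapped. HIP1R fell by 0.59 on the log2 scale in knockdown (SE 0.094, interval −0.78 to −0.40, adjusted p = 1.5e-05) and by 0.53 in rescue (interval −0.72 to −0.33, adjusted p = 4.8e-05), both against control. Rescue against knockdown gave 0.06 (interval −0.13 to 0.26, adjusted p = 0.77). Both calls held without any 1 library, with log2 fold changes of −0.68 to −0.51 for knockdown and −0.58 to −0.47 for rescue.

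The ratio of HIP1 to HIP1R per kilobase of exon therefore differed between groups. It was 0.518, 0.466 and 0.423 in the control libraries, 0.807, 0.573 and 0.519 in knockdown and 0.828, 0.798 and 0.733 in rescue. The control libraries lay below all others, the nearest by 0.518 against 0.519, and knockdown spread most, with replicate 1 inside the range of rescue. In all 9 libraries HIP1R had the higher level per kilobase.

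The windows before the starts of the 2 paralogues are shown in the same form, so that the related genes can be set side by side. HIP1 lies at chr7:75738942-75739191 on the minus strand and HIP1R at chr12:122835207-122835456 on the plus strand.
HIP1: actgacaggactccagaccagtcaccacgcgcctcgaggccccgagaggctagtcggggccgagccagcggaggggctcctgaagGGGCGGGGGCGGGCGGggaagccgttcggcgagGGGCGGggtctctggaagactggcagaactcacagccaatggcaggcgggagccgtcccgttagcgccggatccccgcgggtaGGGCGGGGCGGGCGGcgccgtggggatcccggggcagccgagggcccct
HIP1R: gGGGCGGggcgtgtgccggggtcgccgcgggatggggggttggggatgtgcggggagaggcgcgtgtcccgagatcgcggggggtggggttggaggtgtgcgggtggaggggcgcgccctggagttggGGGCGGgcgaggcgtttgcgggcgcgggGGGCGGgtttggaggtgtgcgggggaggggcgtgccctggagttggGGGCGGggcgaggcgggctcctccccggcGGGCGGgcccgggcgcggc
HIP1 held 7 GC boxes, as many as or more than in all but a small part of promoters (1.12% hold at least 7), and HIP1R held 5. Their GC content was 74.8% and 80.8%. Neither held the AP-1, androgen receptor or TATA letters given above, nor the E-box CACGTG (6.3% of promoters). Of the 10 genes, 8 had a promoter in the table, and ERBB3 and CBL are named only. Of those 8, 7 held a GC box, and ERBB2 was the one that held TGANTCA. A match describes letters and is not a binding site.

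AP2M1, the subunit of AP2 that recognises tyrosine-based sorting signals, had 161, 150 and 161 CPM in control, 174, 178 and 165 in knockdown and 143, 148 and 142 in rescue. The groups did not overlap, with knockdown highest and rescue lowest. AP2M1 fell in rescue against knockdown by 0.25 (SE 0.069, interval −0.40 to −0.11, adjusted p = 0.016). It was not called against control, at 0.13 in knockdown (adjusted p = 0.16) and −0.12 in rescue (adjusted p = 0.17). The call was lost without knockdown replicate 2 (adjusted p = 0.0766), rescue replicate 1 (0.0703) or rescue replicate 3 (0.0718).

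CLTC, the clathrin heavy chain, had 549, 531 and 561 CPM in control, 576, 545 and 506 in knockdown and 613, 574 and 568 in rescue. Rescue lay above control in every library, but no comparison was called, with intervals of −0.16 to 0.14 in knockdown against control, −0.04 to 0.26 in rescue against knockdown and −0.05 to 0.25 in rescue against control. The ratio of CLTC to AP2M1 per kilobase kept the groups apart, with 1.37 to 1.42 for control, 1.23 to 1.33 for knockdown and 1.56 to 1.72 for rescue. CBL, the ubiquitin ligase, had 63.5, 52.0 and 54.0 CPM in control, 62.2, 46.1 and 56.0 in knockdown and 55.3, 48.5 and 49.0 in rescue. The groups overlapped, and none of its log2 fold changes was called (−0.05, −0.11 and −0.15, with intervals that span −0.36 to 0.16 in all).

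**Figure D2:**
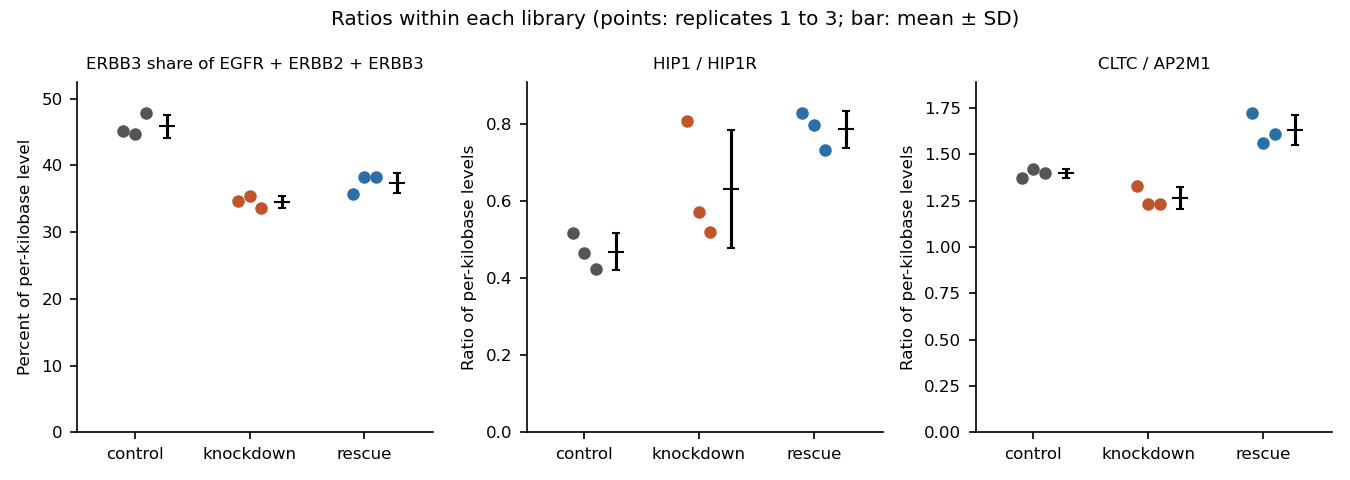
Ratios within each library for control, knockdown and rescue: the percentage of the summed EGFR, ERBB2 and ERBB3 level per kilobase that was ERBB3 (left), HIP1 over HIP1R (middle) and CLTC over AP2M1 (right), each axis from 0; points are libraries and bars the mean ± SD (n = 3). The ERBB3 share is 44.7% to 47.8% in control and 33.6% to 38.3% in the other libraries, and CLTC over AP2M1 is highest in rescue, at 1.56 to 1.72.

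Levels were compared between genes per kilobase of exon, as group means of CPM per kilobase. In control the order was CLTC (46.2), ERBB3 (43.2), AP2M1 (33.1), EGFR (27.2), ERBB2 (23.9), HIP1R (9.31), CBL (4.81), HIP1 (4.39), HBEGF (0.574) and TGFA (0.375). The ranges of CLTC and ERBB3, of EGFR and ERBB2, and of CBL and HIP1 overlapped between control libraries. Within each control library, however, EGFR had a higher share of the receptor sum than ERBB2 (30.3% against 24.5%, 28.3% against 27% and 27.7% against 24.5%). CBL likewise lay above HIP1 within each control library, while the order of CLTC and ERBB3 varied. In knockdown ERBB3 came after AP2M1 and EGFR, at 28.7 against 36.3 and 30.3, and overlapped with EGFR (26.9 to 30.9 and 27.8 to 34.1). In rescue ERBB3 (34.1), EGFR (32.7) and AP2M1 (30.4) followed CLTC (49.4), with EGFR overlapping both of the others. HIP1 exceeded CBL in every rescue library (4.81 to 5.44 against 4.13 to 4.71). Exon lengths came from GENCODE v29 models on another genome build and include every annotated exon, so these levels are approximate.

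**Figure D3:**
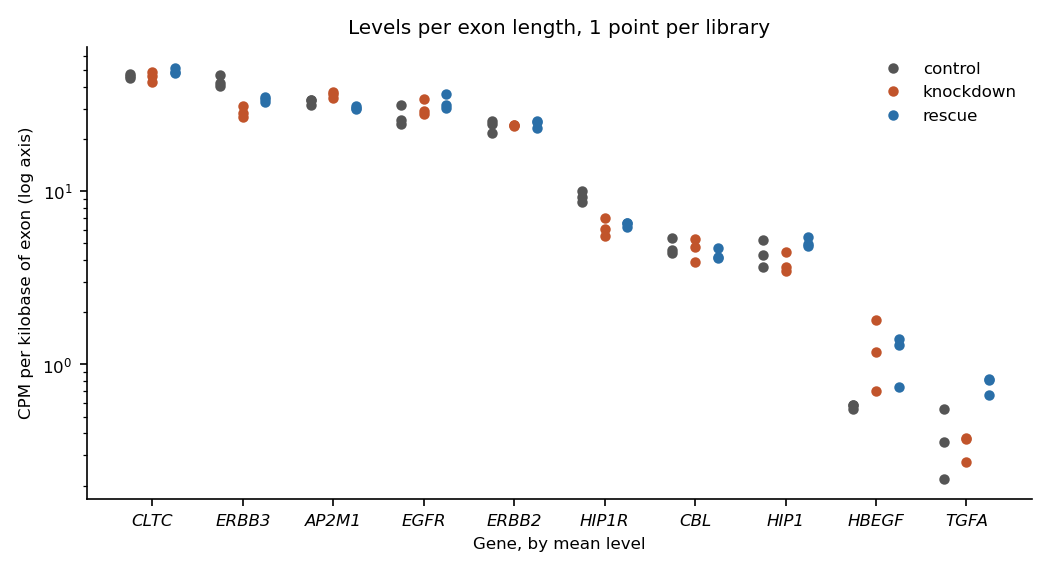
Level of each gene in CPM per kilobase of exon (vertical log axis) in the 9 libraries, with genes ordered by mean level and groups in colour. The receptors, CLTC and AP2M1 lie between 21.6 and 51.8, HIP1R, CBL and HIP1 between 3.46 and 10.0, and the ligands between 0.22 and 1.8.

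As a set, the 10 genes gave 3 calls in knockdown against control (1 higher, 2 lower), where 32.1% of all tested genes were called (16.5% higher, 15.6% lower). In rescue against knockdown there were 4 calls (3 higher, 1 lower), with 10.1% over all genes (5.2% higher, 4.88% lower), and in rescue against control 5 (3 higher, 2 lower), with 37.8% over all genes (19% higher, 18.8% lower). The first share is near that of all genes. With only 10 genes, chosen with earlier results of these data known, none of the 3 shares was tested. They say nothing about these genes in particular. The median log2 fold changes of the 10 were −0.03, 0.08 and 0.07, against 0.01, −0.005 and −0.003 over all tested genes. Libraries of the groups compared did not overlap for 4, 4 and 6 of the 10, against 42.5%, 27.5% and 48.1% of all tested genes. Of the 4 calls in rescue against knockdown, edgeR made 0 without knockdown replicate 2, where 4 members had an unadjusted p under 0.05 and the lowest adjusted p was 0.067. It made 2 without knockdown replicate 3 and 1 without rescue replicate 1, 2 or 3. The 5 calls in rescue against control became 3 without control replicate 3.

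**Figure D4:**
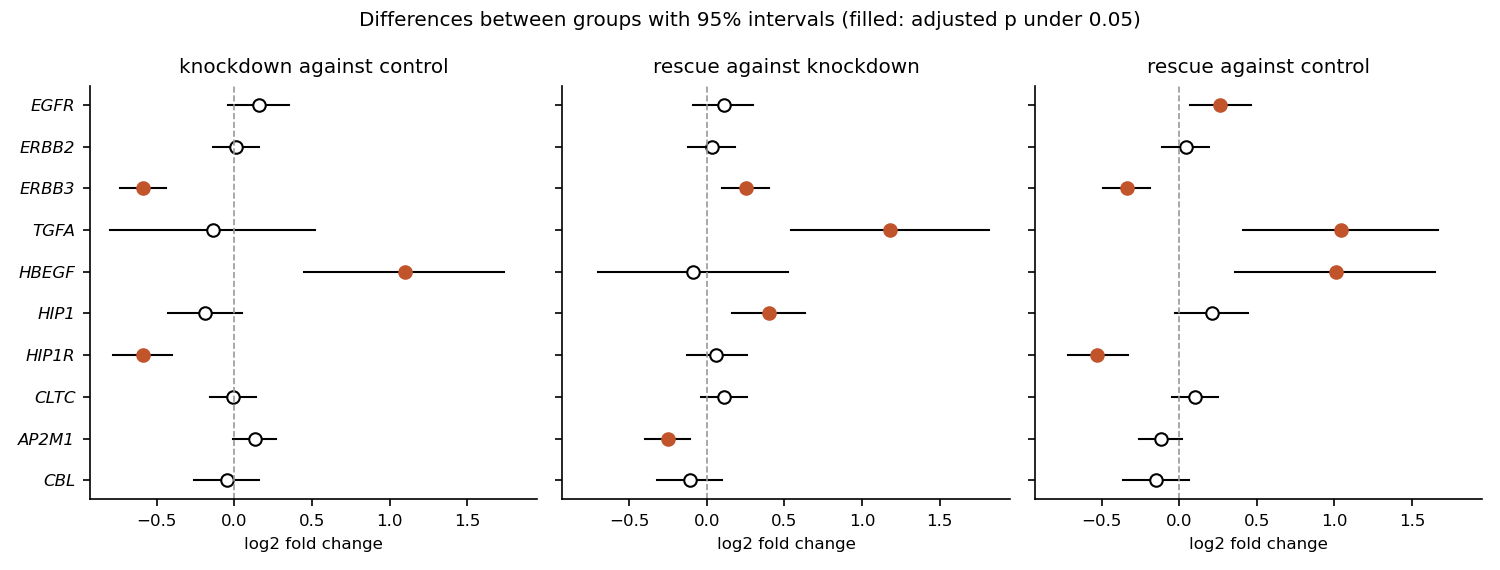
Log2 fold change of each gene (horizontal axis) in the 3 comparisons, with 95% intervals; filled points passed an adjusted p of 0.05. ERBB3 and HIP1R are below 0 in both comparisons with control, HBEGF is above 0 in both, and TGFA is at 1.18 and 1.04 in the comparisons that involve rescue and −0.14 in the other.

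The proteases that release ligands, and their regulators, were examined next. Of 7 tested genes of a list of 8, 1 was higher and 2 were lower in knockdown against control, 1 higher and 0 lower in rescue against knockdown, and 1 higher and 3 lower in rescue against control. These were 42.9%, 14.3% and 57.1% of the 7, against 32.1%, 10.1% and 37.8% of all tested genes. The median log2 fold changes were −0.13, −0.03 and −0.20. ADAM9, a membrane metalloprotease, had 129, 139 and 126 CPM in control, 241, 233 and 197 in knockdown and 328, 306 and 318 in rescue. It rose at each step without overlap (log2 fold changes 0.77 and 0.51, adjusted p = 5.5e-09 and 3.4e-05). ADAM17, the main sheddase of TGFA, had 40.3 ± 3.23 CPM in control and 31.5 ± 1.92 in knockdown, where it fell by 0.36 on the log2 scale (adjusted p = 0.016), and 31.3 ± 5.76 in rescue, which overlapped with control. The knockdown call was lost without control replicate 3 (adjusted p = 0.0836) or knockdown replicate 3 (0.0788), and each of these fits left 1 sheddase gene lower. The rescue call (−0.36, adjusted p = 0.011) was lost without control replicate 3 (0.0689), rescue replicate 1 (0.0843) or rescue replicate 2 (0.0814). Without control replicate 2 or knockdown replicate 3, 2 rather than 1 genes of the list were higher in rescue than in control. ADAM10 fell by 0.26 in knockdown and by 0.29 in rescue against control (adjusted p = 0.0047 and 0.0016). RHBDF2, an inactive rhomboid that takes part in the maturation of ADAM17, fell in rescue against control from 11.1 ± 0.841 to 6.29 ± 0.446 CPM. The related RHBDF1 had higher levels, 51.6 ± 3.22 CPM in control and 60 ± 2.95 in rescue, and was not called (log2 fold change 0.22, adjusted p = 0.058). In rescue against knockdown, 1 gene was lower without control replicate 1 or knockdown replicate 1, and 2 of the 7 had an unadjusted p under 0.05 with all libraries.

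Other parts of the clathrin coat and AP2 machinery changed in both directions. Of 25 tested genes of 26, 5 were higher, 9 lower and 11 not called in knockdown against control, and 3 higher, 11 lower and 11 not called in rescue against control. That is 56% called in each case, where 32.1% and 37.8% of all tested genes were called. The median log2 fold changes against control were −0.09 and −0.17. Epsin EPN3 fell from 46.5 ± 6.25 to 28.6 ± 3.2 CPM in knockdown (log2 fold change −0.70, adjusted p = 7.2e-06). It was also called lower in rescue than in control (−0.59, adjusted p = 6.6e-05). The kinase AAK1, which phosphorylates AP2M1, was lower in both derived lines: 64.0 ± 6.67 CPM for knockdown and 57.2 ± 4.56 for rescue, against 101 ± 17.5 for control (adjusted p = 2.5e-05 and 8.8e-07). Its relative GAK, an uncoating factor, fell in rescue from 150 ± 10.4 to 107 ± 2.94 CPM, and the scaffold ITSN1 from 32.4 ± 3.2 to 19.6 ± 2.11 CPM. GAK and ITSN1 were also called lower in knockdown than in control (log2 fold changes −0.4 and −0.37, adjusted p = 0.00012 and 0.011). The AP2 subunit AP2A2 fell in knockdown from 150 ± 6.99 to 114 ± 4.15 CPM, and was called lower in rescue too (−0.41, adjusted p = 4.4e-05). TNK2, a clathrin-binding tyrosine kinase, was called higher than control in both derived lines (log2 fold changes 0.45 and 0.47). Knockdown libraries had 149 ± 5.62 CPM and rescue libraries 151 ± 2.44, against 109 ± 3.97 for control. TNK2 was not called between the derived lines (0.03, adjusted p = 0.88). Without knockdown replicate 3, 5 rather than 9 genes were called lower in knockdown. In rescue against knockdown edgeR called 0 of the 25, where 10.1% of all tested genes were called. DESeq2 and limma voom called 1 each, and 6 had an unadjusted p under 0.05. Without control replicate 1 or rescue replicate 1, edgeR called 1.

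Genes for receptor ubiquitination and sorting gave 5 higher and 3 lower of 19 tested, of 21 listed, in knockdown against control, and the same counts in rescue against control. That is 42.1% in each, near the 32.1% and 37.8% of all tested genes. RNF41, a ubiquitin ligase for ERBB3, had 112, 111 and 107 CPM in control, 156, 164 and 152 in knockdown and 171, 177 and 167 in rescue. It rose against control by 0.52 and 0.65 on the log2 scale (adjusted p = 8.6e-07 and 1.4e-08), without overlap. NEDD4L, another ubiquitin ligase, rose by 0.70 and 0.59. HGS, the sorting protein of early endosomes, fell at each step: control 260 ± 11.9, knockdown 201 ± 13.5 and rescue 164 ± 9.80 CPM. It gave the 1 call of this list in rescue against knockdown (log2 fold change −0.29, adjusted p = 0.0083). That was 5.26% of the 19 tested, against 10.1% of all tested genes. The HGS call was lost without rescue replicate 1 (adjusted p = 0.0523) or 2 (0.0641). Without control replicate 1, 2 genes of the list were called lower in rescue against knockdown. RAB11A, of recycling endosomes, rose against control by 0.41 in knockdown and 0.39 in rescue (adjusted p = 7.2e-05 and 0.00011). STAM2, a partner of HGS, fell against control in both lines (log2 fold changes −0.43 and −0.68, adjusted p = 0.0076 and 7.6e-05).

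Genes that act next to the receptors gave 3 higher and 7 lower of 22 in knockdown against control, 2 higher and 3 lower in rescue against knockdown, and 4 higher and 9 lower in rescue against control. The shares called were 45.5%, 22.7% and 59.1%, against 32.1%, 10.1% and 37.8% of all tested genes. LRIG1, a membrane protein that restrains ERBB receptors, had 118, 111 and 119 CPM in control, 191, 171 and 198 in knockdown and 262, 237 and 238 in rescue. It rose at each step (log2 fold changes 0.68 and 0.40, adjusted p = 2.2e-08 and 0.00041) without overlap. PTPRK, a receptor phosphatase, fell at each step: control 30.6 ± 1.58, knockdown 6.71 ± 0.575 and rescue 3.78 ± 0.443 CPM (log2 fold changes −2.18 and −0.83, adjusted p = 3.2e-13 and 0.00049). PLCG1, a phospholipase recruited by EGFR, had 135 ± 6.31 CPM in control and fell to 78.4 ± 7.11 in knockdown (adjusted p = 6.1e-09). The kinase SRC fell from 108 ± 5.75 to 80.5 ± 2.6 CPM in the same comparison. PLCG1 and SRC were also called lower in rescue than in control (log2 fold changes −0.92 and −0.55, adjusted p = 2.2e-10 and 1.1e-06). The adaptors GAB2 and GRB7 fell in rescue against knockdown, by 0.75 and 0.38, the second call being lost without knockdown replicate 3 (adjusted p = 0.0651) or rescue replicate 1 (0.062). Without knockdown replicate 3 or rescue replicate 1, 2 or 3, 1 rather than 2 genes of the list passed as higher in rescue against knockdown.

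**Figure D5:**
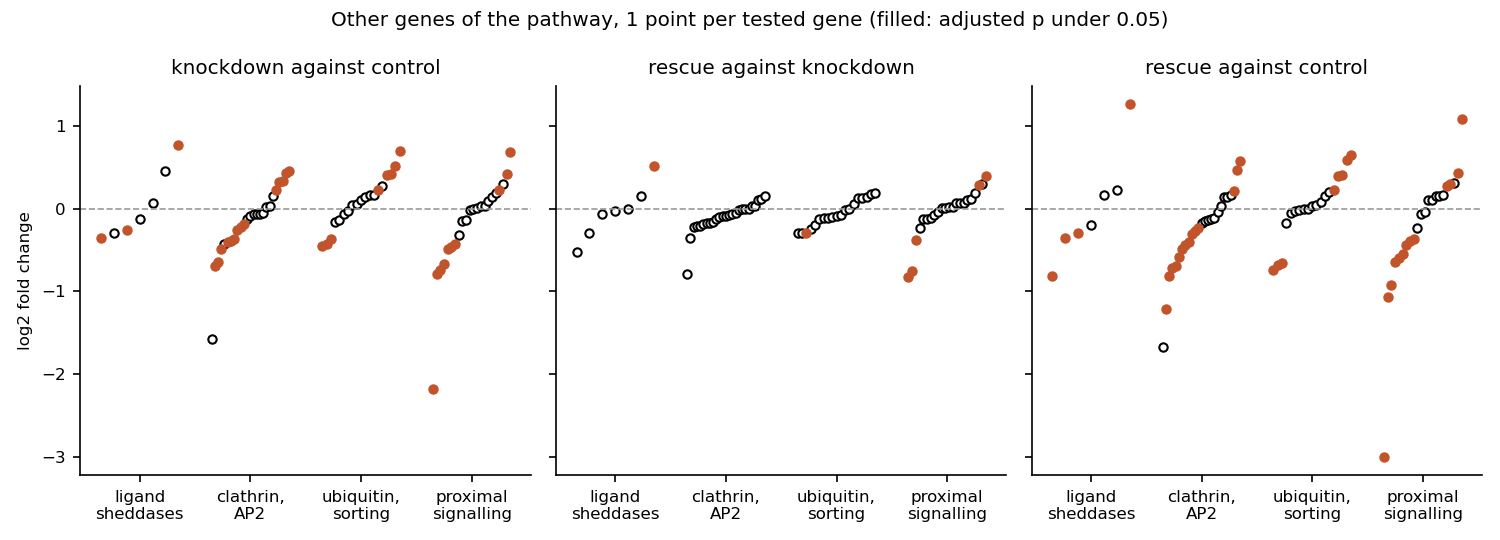
Log2 fold change (vertical axis) of each tested gene of 4 lists in the 3 comparisons, ordered by value within a list; filled points passed an adjusted p of 0.05. Of the 25 clathrin and AP2 genes, 14 are filled in each comparison with control and 0 in rescue against knockdown. Of all tested genes, 32.1% passed in knockdown against control, 37.8% in rescue against control and 10.1% in rescue against knockdown. The lowest point of the proximal signalling list is PTPRK, at −2.18 and −3.01 against control.

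Genes whose log2 CPM over the 9 libraries was most like that of ERBB3, TGFA, HBEGF, HIP1 or HIP1R were found among 10916 genes, as a description; the other members were not searched. All points share the 3 groups, so a high correlation can reflect the group means alone. For ERBB3 they were SHTN1 (r = 0.988), the endocytic receptor LRP1 (r = 0.988) and C1orf198 (r = 0.984). LRP1 had group means of 161, 74.7 and 109 CPM in control, knockdown and rescue, the order of ERBB3. For HIP1R they were GIGYF1 (r = 0.984), KCNAB2 and TICRR (r = 0.978 each), all lower in both derived lines by group mean. For HIP1 they were CARD8 (r = 0.949) and DNMT3A (r = 0.942), for TGFA IGSF8 (r = 0.959), GSEC (r = 0.954) and DLEU2 (r = 0.952), and for HBEGF RHBDD2 (r = 0.975), VPS26A (r = 0.946) and RNF11 (r = 0.940).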

How the data were processed

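RNA-seq of 9 LNCaP libraries was used. Each library came as 1 deposited table of raw read counts by gene, made with FastQC, cutadapt, HISAT2 and HTSeq on hg19, per the submitters' processing notes; no version or strand setting is given in these sources. Summary rows (reads in no gene, 48.83% to 50.71% of a table; ambiguous, 2.26% to 2.67%; not uniquely aligned, 5.26% to 7.62%) were left out. Identifiers were matched to symbols without version (56373 rows by the symbol table, 444 by GENCODE v29).

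The main test used edgeR 4.0.16 (R 4.3.3): filterByExpr with a minimum count of 10, TMM, a robust quasi-likelihood fit to all 9 libraries with 1 mean per group, and glmQLFTest. A gene was called at a Benjamini-Hochberg adjusted p under 0.05 over 18389 genes. Adjusted p-values of single genes come from this test unless another is named. SE is the size of the log2 fold change divided by F's square root, and intervals are 95%. CPM uses TMM-adjusted library sizes. Replicate pairs differed by more than sampling noise (chi-square per gene 5.04 to 21.77). Alternatives were DESeq2 1.42.0, limma voom 3.58.1, other scalings and filters, fewer samples and a replicate block. The scripts were tested on simulated counts.

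The members and lists were chosen with earlier results of these data known. Besides the 10 members, the rule names up to 4 called genes per list and comparison with the smallest adjusted p and at least 5 CPM in the higher group, and the 3 most correlated genes with at least 5 CPM for 5 members. One gene that the rule takes for HIP1 is not reported here. Genes of the list of other receptors and ligands, marker genes and RHBDF1 are named outside it, having been chosen after their values were seen. 1 of 14 listed markers was not analysed here. Low counts and floors cover counting error only.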

Additional observations from a re-analysis of the deposited data

How the results depend on the processing

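Replacing edgeR's test by DESeq2 or limma voom, TMM by DESeq2 size factors or upper-quartile scaling, the filter by none or a stricter one, or the 9 libraries by those of the 2 groups compared left 3, 4 and 5 members called in knockdown against control, rescue against knockdown and rescue against control. Of 240 such values for single members, 238 kept direction and side of the threshold, counting the replicate block. The exceptions were ERBB2 in knockdown against control, 0.00 under the stricter filter, and EGFR there, 0.16 and called with the replicate block (adjusted p = 0.0457), which made 4 members called. Same-numbered libraries showed little common deviation (correlations of −0.037 to 0.077 over 9 pairs, and 5 of 9 libraries correlated best with their own number). Control replicate 1 is among these 5, though its correlation of 0.077 with knockdown replicate 1 was tied by rescue replicate 3. Whether the numbers pair the samples was not settled by these correlations. The block changed no other member call. Over all genes it raised the calls from 5899 to 6348 in knockdown against control and from 6946 to 7363 in rescue against control. Leaving out 1 library gave 2 to 4, 0 to 4 and 3 to 6 members called. In such fits 22 of 270 member values lost the call, 2 gained it and 10 turned sign, all 10 without a call: log2 fold changes ranged in knockdown against control from −0.15 to 0.07 for CBL, −0.41 to 0.23 for TGFA, −0.06 to 0.05 for ERBB2 and −0.06 to 0.04 for CLTC, in rescue against control from −0.02 to 0.09 for ERBB2, and in rescue against knockdown from −0.02 to 0.16 for HIP1R and −0.37 to 0.29 for HBEGF. Of the other pathway genes named, 9 of 333 such values lost the call. Over all genes, 1854 were called in rescue against knockdown, and 1196 without rescue replicate 1. Fewer libraries leave fewer degrees of freedom, and beyond that the cause of these losses was not tested. Depth limits TGFA and HBEGF most, with 24 to 129 counts a library. Scalings moved the median log2 fold change of all genes by at most 0.009.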

Other observations

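Genes whose exons overlap those of the members, by GENCODE v29, were looked at because reads in shared exons may be dropped as ambiguous, and because without strand in the counting, reads of opposite genes cannot be told apart. EGFR-AS1, antisense to EGFR and sharing 186 exon bases with it, had 513, 359 and 272 counts in control, 447, 292 and 346 in knockdown and 332, 364 and 469 in rescue. The groups overlapped, and it was not called in any comparison (edgeR log2 fold changes −0.09, 0.10 and 0.00), with replicate 1 highest in control and knockdown and replicate 3 in rescue. MIEN1, which lies against ERBB2 on the other strand and shares 571 exon bases with it, was called higher in knockdown than in control (log2 fold change 0.33, adjusted p = 0.023). MCAM, an adhesion molecule that shares 509 exon bases with CBL on the other strand, had 38, 40 and 38 counts in control, 7, 17 and 4 in knockdown and 21, 18 and 22 in rescue. It fell in knockdown against control by 2.08 on the log2 scale (adjusted p = 0.003), and all rescue libraries lay between the other groups (0.858 ± 0.156 CPM, SD, n = 3). PGAP3, also opposite ERBB2 and sharing 194 exon bases, was not called and lay at −0.35 in knockdown against control (adjusted p = 0.061), the other direction from MIEN1. PTRH2, which shares 244 exon bases with CLTC on the other strand, was not called either (−0.03, 0.10 and 0.07). Of the genes that overlap a member, these 5 were tested. The noncoding AC091271.1, which shares 26 exon bases with CLTC on the other strand, had 27 to 94 counts a library and was not tested. AC034102.2, which shares 31 exon bases with ERBB3, had 0 counts.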
